A study of Drosophila melanogaster with 4 samples.

Results

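The mitochondrial ribosomal protein genes (mRp genes) are the 73 protein-coding genes whose symbols begin with mRpL or mRpS. They were taken out of 13968 protein-coding genes annotated on the chromosome arms and on chromosomes 4, X and Y. The symbols name the large (mRpL) and the small (mRpS) ribosomal subunit. The subunit was read from the symbol alone and was not checked against ribosome structures. There were 47 mRpL and 26 mRpS genes. In a list made from general knowledge of protein families, 42 had a bacterial homologue and 31 were counted as specific to mitochondria. The latter include mRpS18A and mRpS18B, although these are related to S18. The symbol rule used no measured value. It leaves out tko and bonsai, which encode the mitochondrial forms of S12 and S15 and are described beside the members. The genes were spread over the genome, with 12 on 2L, 12 on 2R, 17 on 3L, 21 on 3R and 11 on X, and none on chromosome 4 or Y.

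Mitochondria carry their own ribosomes, which descend from those of the bacterial ancestor and translate the few messages of the mitochondrial genome, all of which in animals encode core subunits of the oxidative phosphorylation complexes. The ribosomal RNAs of these ribosomes are made inside the organelle, but every one of their proteins is encoded in the nucleus, made in the cytosol and imported. Such genes serve nearly every cell type, in contrast to the patterning genes of the early fly embryo.

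Transcription start sites (TSSs) were mapped by csRNA-seq in Canton S wild type Drosophila melanogaster, in 3 libraries from embryos of 0 to 12 h, beside 1 library of input RNA. No genotype, treatment or age was contrasted. csRNA-seq enriches short capped RNAs, so that the first base of a read is where transcription began, and coverage does not grow with gene length. The files give 1 coverage value per TSS for the experiment, in reads scaled to 10000000 per library. Each of the 232302 values was a whole number of reads from 1 of 3 libraries of 7299457, 5931389 and 4070746 reads, so 1 read was worth 1.37, 1.69 or 2.46. Neither the input nor a value per library was analysed here, so no spread between replicates and no test of a difference could be given. A gene's summed coverage can add TSSs read in different libraries. In whole embryos fewer cells using a gene and less RNA per cell cannot be told apart. The pair-rule genes eve and ftz, which are active in the early embryo, had summed coverages of 508 and 143. Intervals on shares of genes are 95% Wilson intervals and cover counting error only.

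All 73 mRp genes had at least 1 TSS on their strand at most 200 bp from an annotated start (100%, interval 95% to 100%), against 9709 of 13895 other protein-coding genes (69.9%). With at least 3 reads required at a TSS, 71 of 73 members had one, and the other 2 were mRpL54 and mRpL55, whose TSSs had 2 reads each. The members held 1149 TSSs with 9370 reads, and together a summed coverage of 16409. The summed coverage of a member, over all its TSSs within 200 bp of a start, had a median of 138 (25th to 75th percentile 77.3 to 303), against a median of 174 in the other genes with a TSS (48.5 to 531). The 75th percentile was 3.92 times the 25th in the mRp genes and 10.9 times in the other genes. This ratio was also low in related families, at 4.21 in cytosolic ribosomal protein genes, 4.33 in other genes of mitochondrial gene expression and 5.68 in oxidative phosphorylation genes. In all, 59 of 73 members lay between the 25th and 75th percentiles of the other genes. Of the remainder, 7 lay above and 7 below. The lowest member still had more coverage than 12% of the other genes with a TSS, and 14.3% of those genes exceeded the highest member.

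**Figure D1:**
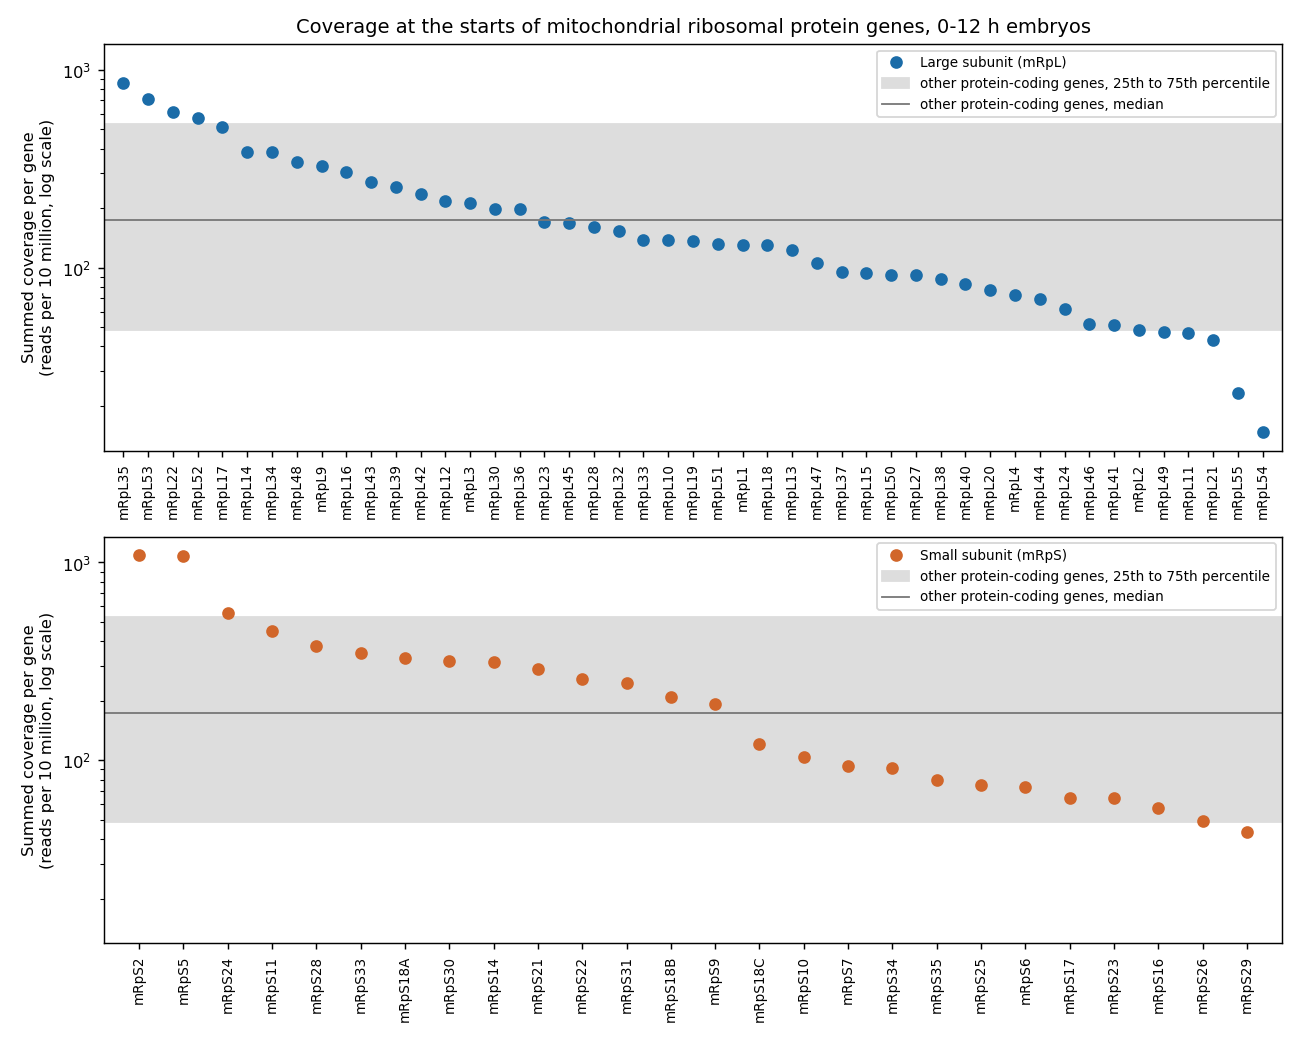
Summed coverage of each mRp gene (log axis, reads per 10000000), mRpL genes above and mRpS genes below, each in falling order. The band and line are the 25th to 75th percentile and the median of the other protein-coding genes with a TSS. Values run from 14.7 for mRpL54 to 1089 for mRpS2, and 59 of 73 points lie in the band.

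The highest coverage belonged to a pair of small-subunit genes with bacterial homologues. mRpS2 had a summed coverage of 1089 from 718 reads at 24 TSSs. mRpS5 had 1079 from 574 reads at 49 TSSs, the largest number of TSSs among the members. They reached nearly the same total in different ways, since 60.4% of the coverage of mRpS2 and 17.1% of that of mRpS5 stood at the strongest TSS. Next came mRpL35 with 858, mRpL53 with 714 and mRpL22 with 613. mRpL52 (571), mRpS24 (555), mRpL17 (517), mRpS11 (448) and mRpL14 (384) completed the 10 highest. mRpL53 shares its annotated start with CG33155 on the same strand, and mRpL13 (122) shares its start with CG10602, so in these 2 cases initiation for the member and for its neighbour cannot be told apart.

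At the low end stood mRpL54, a mitochondria-specific protein of the large subunit, with a coverage of 14.7 that rested on 6 reads, 2 at each of 3 TSSs. mRpL55, also specific to mitochondria, had 23.3 from 12 reads. The next 8 genes lay close together, and their order rests on few reads. They were mRpL21 (43.2), mRpS29 (43.3), mRpL11 (46.6), mRpL49 (47.4), mRpL2 (48.3), mRpS26 (49.2), mRpL41 (51.4) and mRpL46 (51.8), with between 23 and 31 reads each. mRpS29 is the fly DAP3, a GTP-binding protein of the small subunit. The other 53 members lay between 57.2 (mRpS16) and 383 (mRpL34). The strongest TSS of 18 members rested on fewer than 10 reads, and in 4 members the strongest TSS was tied with another.

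Most proteins of a ribosome are present in equal number, but coverage at their genes was not equal, and the highest member had 73.9 times the coverage of the lowest. The median was 137 in mRpL genes and 201 in mRpS genes. The 25th to 75th percentiles were 80.1 to 245 and 75.9 to 326, so the ranges of both symbol groups overlapped almost entirely. Members with a bacterial homologue had a median of 157 (93.5 to 324), against 94.6 (66.7 to 257) in members counted as specific to mitochondria. These ranges also overlapped, and without replicates the difference was not tested.

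Coverage also differed within parts of the ribosome that work together. These groups were chosen after their values were seen. At the stalks, where translation factors bind and deacylated tRNA leaves, mRpL12 had 217, mRpL10 had 138, mRpL1 had 131 and mRpL11 had 46.6. Around the centre where peptide bonds form, mRpL3 had 213, mRpL4 had 73.0 and mRpL2 had 48.3. At the tunnel through which the new chain leaves, mRpL22 had 613, mRpL23 had 171 and mRpL24 had 62.0, and mRpL45, which holds the mammalian mitoribosome to the inner membrane, had 168. In the central protuberance, the mitochondria-specific proteins mRpL48, mRpL38, mRpL40 and mRpL46 had 344, 87.4, 82.9 and 51.8. The groups are not complete, and their spread was not compared with that of other members.

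Coverage of the mRp genes was far under that of the ribosomal proteins of the cytosol and under that of the enzymes they serve. The 87 cytosolic ribosomal protein genes with a TSS had a median coverage of 11217, 81.1 times that of the mRp genes. The 66 nuclear oxidative phosphorylation genes with a TSS, whose products assemble with the chains made on mitochondrial ribosomes, had a median of 761, 5.5 times that of the mRp genes. Nearer in level were the other genes of mitochondrial gene expression, such as the mitochondrial aminoacyl-tRNA synthetases, translation factors, polymerases and transcription factors. Of the 40 symbols listed for this group 38 were annotated, 37 had a TSS, and their median coverage was 94.1 (34.7 to 150). The exception in that list was ValRS-m, at which no TSS was listed. The ribosomal proteins outside the symbol rule, which are counted in this list, had 358 (tko) and 793 (bonsai).

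**Figure D2:**
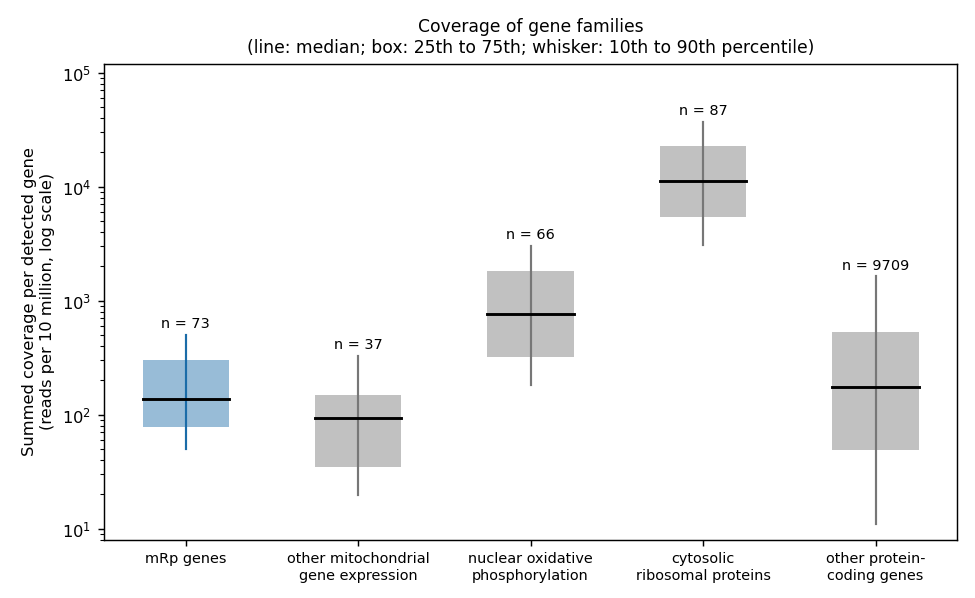
Summed coverage per gene with a TSS (log axis, reads per 10000000) in the mRp genes, 3 families and all other protein-coding genes, with the median (line), the 25th to 75th percentile (box) and the 10th to 90th percentile (whisker). The median of the mRp genes (138) lies near that of the other protein-coding genes (174) and far under that of the cytosolic ribosomal protein genes (11217).

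Initiation at mRp genes was spread over a stretch of bases, and a single dominant start was uncommon. Shape was measured in the 45 members with a summed coverage of at least 100, and the other 28 members were left out. The width, defined as the bases that hold the middle 80% of a gene's coverage, had a median of 37 bp (25th to 75th percentile 22 to 59), against 35 bp (7 to 68) in 6055 other genes. In genes with 1 annotated start it was 34.5 bp (21 to 49.5) in 40 mRp genes and 30 bp (7 to 52) in 3603 other genes. The narrowest mRp gene had 10 bp. At like coverage the other genes were wider, with a median of 41 bp and a 25th percentile of 15 bp in 4671 genes, so the width of the mRp genes was under that of the other genes in this comparison and above it in the others.

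The share of coverage at the strongest TSS was lower in the mRp genes. Its median was 25.7% in the mRp genes and 35.4% in the other genes. The median share within 5 bp of the strongest TSS was 46.0% in the mRp genes and 61.2% in the other genes. Among other genes within the coverage range of the members these medians were 31.5% and 55.5%. The share within 5 bp was 44.9% in 30 members with a bacterial homologue and 62.75% in 15 specific to mitochondria. At the strongest TSS alone these 2 groups had 24.6% and 27.4%. At least 50% of the coverage stood at 1 TSS in 4 of 45 mRp genes (8.89%, interval 3.51% to 20.7%), against 2005 of 6055 other genes (33.1%). Coverage differs between the lists, and its part in this share was not tested beyond a comparison at like coverage. Among 4671 other genes within the coverage range of the members it was 26.8%. In genes with 1 annotated start, not limited to that range, it was 10% in mRp genes (4 of 40) and 31% in other genes. Cytosolic ribosomal protein genes, with a median width of 7 bp and 34.1% of genes past this mark, were narrower than the mRp genes by these measures. The oxidative phosphorylation genes had a median width of 35.5 bp and 12.5% past it. Among the other genes of mitochondrial gene expression, 18 had enough coverage. Their median width was 37.5 bp and their median share at the strongest TSS 27.5%, both near the values of the mRp genes. Their median share within 5 bp of the strongest TSS was 62.4%, above the 46.0% of the mRp genes and near the 61.2% of the other genes.

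**Figure D3:**
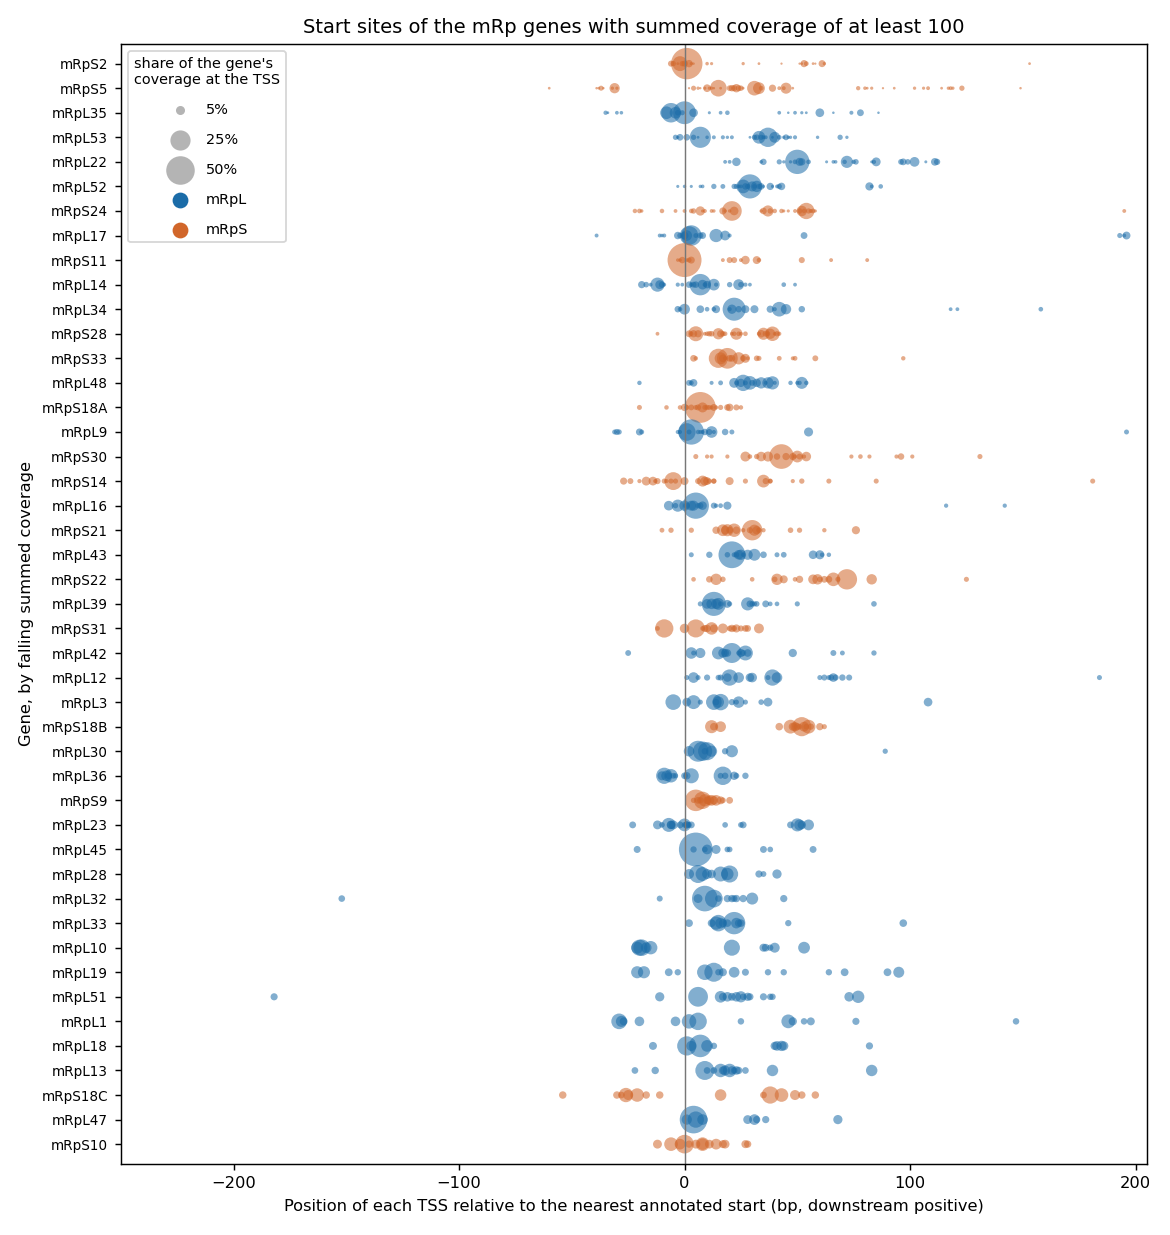
Every TSS of the 45 mRp genes with a summed coverage of at least 100, by its distance from the nearest annotated start of its gene (x axis, bp) and with a point area in proportion to its share of the gene's coverage. Most rows are strings of small points, and 4 rows (mRpS2, mRpS11, mRpS18A and mRpL45) hold at least 50% of their coverage at 1 TSS.

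The 4 exceptions were mRpS11, mRpL45, mRpS2 and mRpS18A. In mRpS11 the TSS at position 17072732 of 3R (dm6, plus strand), which is the annotated start itself, held 70.7% of the coverage with 188 reads, and the next TSS held 4.51%. In mRpL45 the TSS at position 22618497 of 3R (plus strand), 5 bp downstream of the start, held 70.0% with 48 reads. In mRpS2 the TSS at position 4850418 of 2L (minus strand), 1 bp downstream of the start, held 60.4% with 480 reads, and a neighbour at position 4850421 held 13.6%. In mRpS18A the TSS at position 8562586 of 3R (minus strand), 7 bp downstream of the start, held 58.3% with 114 reads. All 4 strongest TSSs lay in the 5′ UTR within 10 bp of the annotated start.

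A narrow promoter was not always one with a dominant base. The narrowest members were mRpS9 (10 bp), mRpL33 (11 bp), mRpS18A (14 bp), mRpL45 (15 bp), mRpL30 (16 bp) and mRpL16 (17 bp). In mRpS9 the 2 strongest TSSs, 3 bp apart at positions 7902662 and 7902659 of 3R (minus strand), held 28.5% and 18.5% of the coverage. In mRpL30 the strongest TSS held 26.9% but the bases within 5 bp of it held 79.3%. In all, 9 of the 45 members had a width of 20 bp or less and 11 a width over 60 bp.

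The widest members were mRpS14 (305 bp), mRpL23 (263 bp), mRpS5 (109 bp), mRpL19 (109 bp), mRpL1 (83 bp) and mRpS18C (76 bp). mRpS14, mRpL23 and mRpS5 are among the 6 members with several annotated starts, and in these the width can span more than 1 promoter. mRpL23 was initiated at similar strength in separate places, with 15 reads at position 2373711 and 13 reads at position 2373451 of 3L (minus strand), which held 12.0% and 10.4% of its coverage. mRpL19, mRpL1 and mRpS18C have 1 annotated start each. In mRpS18C, a mitochondrial form of S18, the TSSs formed a group upstream and a group downstream of the annotated start. The strongest of them lay at 26 bp upstream with 9 reads and at 38 bp downstream with 13 reads. The downstream one coincided with the start codon, which occurred at no other member.

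The strongest TSS of most mRp genes lay close to an annotated start and a little downstream of it. It lay downstream of the nearest start in 63 of 73 members, at the start in 3 and upstream in 7. The share downstream was 86.3% (interval 76.6% to 92.4%), near the 78.1% of other genes and the 80.7% of other genes at like coverage. The median distance in either direction was 13 bp, against 10 bp in other genes, and 47 members lay within 20 bp. It exceeded 50 bp in 4 members, all of them downstream: mRpS22 (72 bp), mRpL37 (69 bp), mRpS6 (55 bp) and mRpS18B (52 bp). In mRpS22 the 2 strongest TSSs, at positions 27916980 and 27916974 of 3R (plus strand), held 25.4% and 11.4% of the coverage from 39 and 12 reads. In mRpS6 the strongest TSS lay in the annotated first intron, but it rested on 7 reads, as did another TSS 1 bp from the start.

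The leaders of the mRp messages were short. From the strongest TSS to the start codon, counted over exon bases, the median was 69.5 bases (46 to 82) in the 72 mRp genes whose strongest TSS lay before the start codon, against 129 bases (69 to 321) in other genes and 123 bases in other genes within the coverage range of the members. In other genes with 1 annotated start it was 104 bases, against 70 bases in the mRp genes with 1. The cytosolic ribosomal protein genes (49 bases) and the oxidative phosphorylation genes (62.5 bases) also had short leaders. So did the other genes of mitochondrial gene expression (76.5 bases).

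Most mRp genes had a close neighbour on the opposite strand. In 53 of 73 members (72.6%, interval 61.4% to 81.5%) an annotated protein-coding gene on the opposite strand began within 500 bp upstream, in a head-to-head arrangement, against 3762 of 13895 other protein-coding genes (27.1%). Among other genes with a TSS the share was 33.9%, and among those within the coverage range of the members it was 38.8%. The arrangement was about as frequent in mRpL genes (34 of 47, 72.3%) as in mRpS genes (19 of 26, 73.1%), and in members with a bacterial homologue (73.8%) as in those specific to mitochondria (71%). Among related families the share was 50% in the other genes of mitochondrial gene expression, 46% in the oxidative phosphorylation genes and 39.1% in the cytosolic ribosomal protein genes. These family shares count all annotated genes, with or without a TSS, whereas every member had a TSS. The gap between the annotated starts had a median of 264 bp. It was 100 bp or less in 18 members, over 300 bp in 20 and between these limits in 15. Apart from the comparisons with other genes that had a TSS or like coverage, these shares come from the annotation alone.

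Most of these neighbours were themselves initiated. In the 500 bp upstream of the strongest TSS, 53 of 73 members had an opposite-strand TSS (72.6%, interval 61.4% to 81.5%). This compared with 4387 of 9709 other genes with a TSS (45.2%) and 49.1% of other genes within the coverage range of the members. Among related families, 44 of 87 cytosolic ribosomal protein genes with a TSS had one (50.6%). So did 38 of 66 oxidative phosphorylation genes and 21 of 37 other genes of mitochondrial gene expression. Downstream, over the same distance, the share was 14 of 73 members (19.2%, interval 11.8% to 29.7%), against 2069 of 9709 other genes (21.3%). The members with an upstream TSS and those with a head-to-head gene overlapped in 49 genes, out of 53 in each. Of the 53 strongest upstream TSSs, 47 were at most 200 bp from an annotated start on their own strand. Among the 20 members with no head-to-head gene, 4 had an upstream opposite-strand TSS (20%, interval 8.07% to 41.6%), against 23.5% of the other genes with none.

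**Figure D4:**
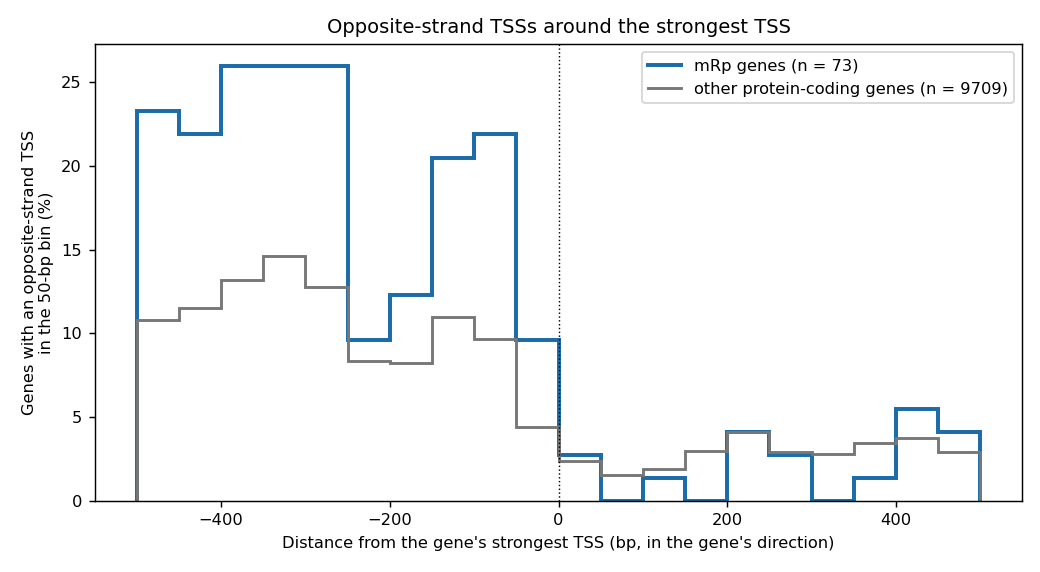
Share of genes with an opposite-strand TSS in each 50-bp bin around the gene's strongest TSS (x axis, bp, negative upstream), for the 73 mRp genes and the 9709 other protein-coding genes with a TSS. Between 400 and 250 bp upstream the mRp genes are at 26% in each bin and the other genes at 12.8% to 14.6%, and downstream of 0 both stay at low values.

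The share of mRp genes with an opposite-strand TSS was higher from 500 to 250 bp and from 150 to 50 bp upstream than in between. It was 23.3% from 500 to 450 bp and 21.9% from 450 to 400 bp upstream, against 10.8% and 11.5% of other genes. In each of the 3 bins between 400 and 250 bp upstream, 19 of 73 members had one (26%), against 12.8% to 14.6% of other genes. In the bin from 250 to 200 bp upstream it was 7 of 73 (9.59%), against 8.34% of other genes. From 200 to 150 bp upstream it was 9 of 73 (12.3%), against 8.24% of other genes. From 150 to 100 bp it was 15 of 73 (20.5%), against 11%. Nearer, from 100 to 50 bp upstream, it was 16 of 73 (21.9%), against 9.64% of other genes. In the last 50 bp before the strongest TSS it was again 7 of 73 (9.59%), against 4.4% of other genes. The other genes also had a dip from 250 to 150 bp upstream.

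At these promoters the opposite strand often carried the higher coverage. Where a member had upstream opposite-strand TSSs, their summed coverage exceeded the member's own in 31 of 53 (58.5%, interval 45.1% to 70.7%), against 1318 of 4387 other genes (30%). In other genes within the coverage range of the members it was 33.3%. The member's own coverage was a median of 0.78 times the upstream coverage, against 3.78 times in the other genes. The upstream coverage itself had a median of 186 at mRp genes and 56.8 at other genes. Among other genes within the coverage range of the members these medians were 2.66 times and 70.1. In related families the median upstream coverage was 131 (oxidative phosphorylation), 107 (cytosolic ribosomal proteins) and 49.8 (other mitochondrial gene expression). These comparisons did not separate genes by neighbour. No head-to-head gene was annotated for 4 of the 53 members and for 1509 of the 4387 other genes. A comparison among head-to-head genes alone was not made.

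Among the 53 head-to-head partners, 52 had a TSS at the facing start, and only Kua, the partner of mRpS18B, had none listed. The partner had the higher coverage in 33 pairs and the lower in 19. In 20 pairs the genes were within 2 times of each other, in 11 the partner had at least 5 times the member's coverage, and in 5 the member had at least 5 times the partner's. The members of these pairs had a median of 135 and the partners 271. Head-to-head pairs of other protein-coding genes were not measured in this way. Whether these counts are particular to mRp genes was therefore not tested. The strongest TSSs of a pair lay a median of 340 bp apart. No partner was another mRp gene or a cytosolic ribosomal protein gene, and 1 was on the list of oxidative phosphorylation genes.

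**Figure D5:**
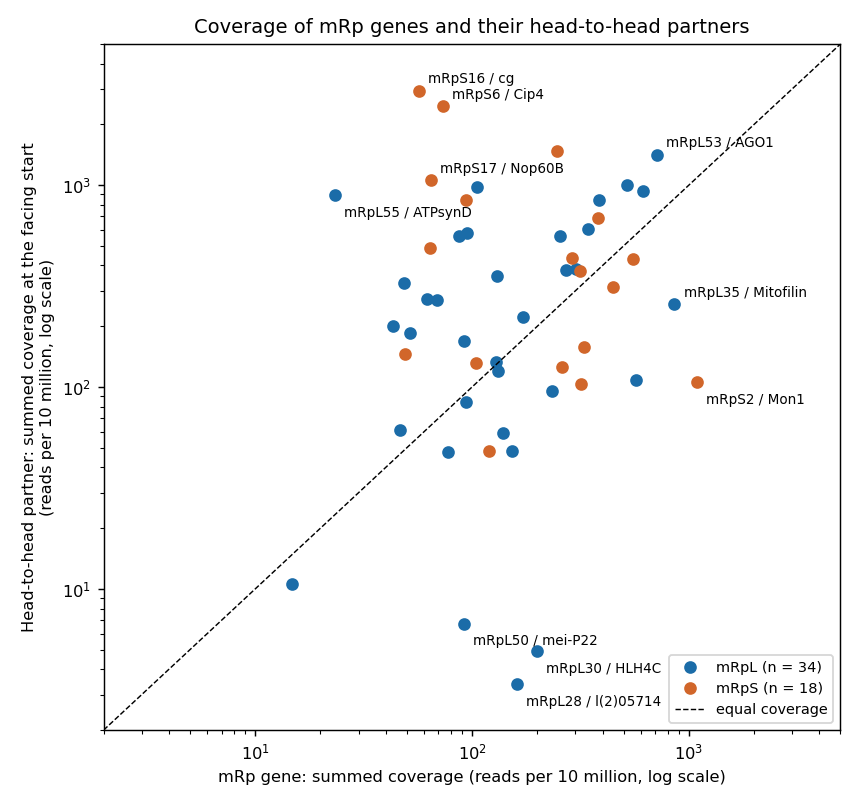
Summed coverage of each mRp gene (x axis) and of its head-to-head partner at the facing start (y axis), both in reads per 10000000 on log axes, for the 52 pairs in which the partner had a TSS. Points above the dashed line (33) have the higher coverage at the partner, and mRpS16 with cg is the farthest above it.

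The partners with the most coverage served varied functions. mRpS16 had 57.2, against 2941 at cg, which encodes the zinc finger protein Combgap, across a gap of 97 bp. mRpS6 had 73.5, against 2464 at Cip4, for an F-BAR protein of membrane traffic. mRpS31 had 246, against 1483 at hzg. In these 3 pairs the partner stood 51.4, 33.5 and 6.03 times above the member.

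mRpL53 had 714, against 1415 at AGO1, the Argonaute protein of the microRNA pathway. mRpS17 had 64.4, against 1055 at Nop60B, the pseudouridine synthase of box H/ACA particles. mRpL17 had 517, against 998 at Tudor-SN, a nuclease-domain protein. The first and the third of these members were strong themselves and within 2 times of the partner, and the second was not.

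mRpL47 had 105, against 976 at the start that Kdm3, for a histone demethylase, shares with CG8176. mRpL22 had 613, against 938 at if, the integrin subunit Inflated. mRpL55, the second lowest member, had 23.3, against 895 at ATPsynD, a subunit of the ATP synthase and the one oxidative phosphorylation gene among the partners. Its gap was 95 bp, and the strongest TSSs of the pair lay 121 bp apart. mRpL34 had 383, against 848 at Dg, for Dystroglycan, and just outside the 10 highest partners mRpS7 had 93.4, against 842 at Cdk1, the kinase of mitotic entry.

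A few more pairs were picked out after their values were seen, for products known from mitochondria. mRpL35 had 858, against 257 at Mitofilin, which shapes the inner membrane of mitochondria. mRpL18 had 130, against 134 at Taz, the tafazzin that remodels cardiolipin, with annotated starts 20 bp apart. mRpL11 had 46.6, against 61.3 at HtrA2, a mitochondrial protease. No complete list of mitochondrial proteins was used, so how many partners encode one was not counted.

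In 3 of the 5 pairs with the member at least 5 times above, the facing start of the partner had almost no coverage. Other starts of a partner were not counted. mRpL28 had 161, against 3.37 at its partner, and mRpL30 had 198, against 4.91 at HLH4C, a bHLH gene. mRpL50 had 92.3, against 6.74 at mei-P22, a gene of meiotic recombination. These partner values rested on 1 or 2 TSSs. In the other 2 pairs the partner had more coverage. mRpS2 had 1089, against 105 at Mon1, and mRpL52 had 571, against 108 at CG12107.

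Members with and without a partner had close median levels. The median coverage was 138.5 in the 53 members with a head-to-head gene and 137.4 in the 20 without one. The 20 included mRpS5 and mRpL14 among the 10 highest members, and mRpS29, mRpL41 and mRpL49 among the 10 lowest. The members with an upstream TSS but no annotated head-to-head gene were mRpL19, mRpL9, mRpL4 and mRpL41, with upstream coverages of 7.37, 20.5, 9.97 and 72.9, of which mRpL41 alone had more coverage upstream than of its own. The members with a head-to-head gene but no upstream TSS within the distance were mRpL50, mRpL22, mRpS30 and mRpS18B.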

How the data were processed

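The study measured csRNA-seq in 3 libraries of Canton S embryos and 1 input library. The authors trimmed the reads, aligned them to dm6 with STAR 2.7.9a, called TSSs from read 5′ ends in HOMER 4.11 with a minimum of 3, and deposited the coverage of each TSS as a signal in reads per 10000000. The paper gives the minimum as a read count and states that background input was controlled for. Some listed TSSs had only 2 recovered reads, as at mRpL54, so the minimum did not act on recovered reads. How the libraries were combined into 1 value is not given in the sources used here. A file with the log2 of the coverage was not used.

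Reads behind each value were recovered from the steps of the coverage (232302 of 232302 values). TSSs on the strand of a gene and within 200 bp of any transcript start in Ensembl release 115 (BDGP6.54, dm6 coordinates) were assigned to it, and coverage was summed without regard to library. Width spans the 10th to 90th percentile of coverage. Upstream and downstream opposite-strand TSSs were counted within 500 bp of the strongest TSS, and ties took the lower coordinate. The scripts were tested on simulated data. Cytosolic ribosomal protein and oxidative phosphorylation genes were taken by symbol.

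Members and lists were chosen with earlier results of these data known. Named genes were the 10 highest and 10 lowest members, the 6 narrowest and 6 widest, the 10 partners with the most coverage, members whose strongest TSS lay over 50 bp from a start, and members that share a start. Other genes were named outside these rules, among them eve, ftz and the pair of mRpS7 with Cdk1. Some of them are marked as chosen after their values were seen. No test was made, since there is 1 value per TSS and genes of a list are not replicates. Promoter sequences and motifs were not analysed here. Alternatives covered the distance to a start, reads per TSS, the coverage minimum, the deduplicated list and the distances for opposite-strand TSSs and genes. Software was SciPy 1.17.1, pandas 2.3.3 and NumPy 2.4.6 under Python 3.11.15, with matplotlib 3.10.9 for figures.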

Additional observations from a re-analysis of the deposited data

How the results depend on the processing

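Of 45 alternatives, 37 gave a value inside the 95% interval of the reported one. The median summed coverage of the mRp genes was 32.0 with the deduplicated list, and also with the strongest TSS alone (chosen after seeing the data), since that list holds 1 TSS per group of overlapping windows. The median width was 51 bp with a coverage of at least 500, which left 8 members, and 53 bp with the middle 90% of coverage. The median share of coverage was 46.0% when all bases within 5 bp of the strongest TSS counted. The share of members with an upstream opposite-strand TSS was 37% within 250 bp and 82.2% within 1000 bp, against 26% and 57.2% of other genes. The share with a head-to-head gene was 34.2% within 250 bp, against 14.1% of other genes, and 79.5% within 1000 bp, against 35.9%. With at least 4 reads per TSS, 71 of 73 members had a TSS, against 63.7% of other genes. The 2 further alternatives chosen after seeing the data, leaving out the members that share a start and measuring from any annotated start, stayed within the interval.

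No paired analysis was possible because each TSS has 1 value for the experiment and the columns carry no replicate numbers. For the same reason no replicate could be left out in turn. The motif alternatives were not run, since promoter sequences were not analysed here. Depth limits the 28 members with a coverage under 100, whose shape was not measured, and the 18 members whose strongest TSS rests on fewer than 10 reads. The library that gave the strongest TSS was that of 7299457 reads in 20 members, of 5931389 in 30 and of 4070746 in 23, and its part in the results was not tested.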

Other observations

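Some mRp genes also had TSSs inside the gene, away from their starts. A TSS on the gene's own strand lay inside the gene and more than 200 bp from its starts in 26 of 73 mRp genes (35.6%, interval 25.6% to 47.1%), against 46.7% of the other protein-coding genes. An antisense TSS lay there in 20 of 73 (27.4%, interval 18.5% to 38.6%), against 37.9% of the other genes. The mRp genes are short, with a median length of 909 bp, against 2178 bp in the other genes, and gene length was not matched. Both intervals contain the shares of the other genes. In genes with 1 annotated start the shares were 32.8% of mRp genes and 38.6% of other genes for sense TSSs, and 26.9% of mRp genes and 29.8% of other genes for antisense TSSs.

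The longest members were mRpS9 (13391 bp) and mRpS5 (6299 bp). mRpS9 held 3 antisense TSSs with a summed coverage of 66.3, of which 56.5 stood at 1 TSS, and 3 sense TSSs with 77.1. Its own start had 192. mRpL53 held 9 sense TSSs inside the gene with a coverage of 65.2. In the other members with such TSSs the sum was lower on either strand. These genes were named after their values were seen.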
